A study of Rattus norvegicus with 15 samples.

Results

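The genes described here are 10 genes of fat cells and of triglyceride handling, read in mammary tumours of rats raised on chows with different amounts of zinc. They were taken from a fixed list of names (Adipoq, Lep, Fabp4, Plin1, Lpl, Cd36, Pparg, Lipe, Mogat1 and Dgat2). That list was chosen with earlier results of these data known. The probes of these genes were found by matching the accession of each probe to a rat gene symbol. Of the 10 genes, 9 had a matched probe on the array, with 13 probes between them, against 13832 genes with a matched probe in all. Signal was strong enough to test 4 of the genes, Adipoq, Lpl, Mogat1 and Dgat2, through 6 of the 21011 probes tested. Lep, Fabp4, Cd36, Pparg and Lipe had probes that stood above background in too few tumours to be tested, and Plin1, which codes for perilipin on the fat droplet, is named only.

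The animals were female Sprague-Dawley rats, an outbred strain with no engineered allele, and every animal received the carcinogen DMBA. Dams (16 per group) ate chow with 3 mg zinc per kg (deficient), 35 mg per kg (adequate, here called control) or 180 mg per kg (supplemented) from day 10 of gestation, and their daughters stayed on that chow through weaning at day 21 and up to day 51. All daughters were then given 50 mg/kg DMBA by mouth and ate adequate chow until day 180, when tubular or papillary mammary tumours were collected, so the diets differed early in life and not while the tumours were growing. RNA from 5 tumours per diet was hybridised, 1 tumour per array, which makes 15 arrays. The labels name the control group only as a negative control, and a description field speaks of mammary gland at day 21. Both were settled from the design text and the tissue and age labels. Nothing in the labels ties tumours to animals or litters, so every p-value here measures only the spread between these tumours.

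White fat cells store fatty acids as triglyceride in a droplet coated with perilipin and secrete hormones such as adiponectin and leptin. The nuclear receptor PPARgamma switches on much of that programme. The mammary epithelium grows inside a fat pad, so a piece of mammary tumour can carry fat cells along with tumour cells. Triglyceride is assembled by acyltransferases, either from glycerol phosphate or from monoacylglycerol. MOGAT1 carries out the monoacylglycerol step and DGAT2 the final one, and neither enzyme is confined to fat cells. The question asked of Mogat1 was whether its level followed the fat content of the tumours, for which Adipoq was the measure.

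The 2 genes this comparison turns on are Adipoq and Mogat1, and the 250 bases before their annotated starts are shown to set their upstream sequence side by side. Both come from RefSeq's rat assembly GRCr8, which listed a promoter for 6 of the 10 genes. Adipoq lies on the minus strand, with this window at chr11:91240170-91240419, and Mogat1 on the plus strand, at chr9:87429177-87429426. Both are printed 5′ to 3′ in the direction of the gene, with capitals marking the matched motifs on either strand.
Adipoq: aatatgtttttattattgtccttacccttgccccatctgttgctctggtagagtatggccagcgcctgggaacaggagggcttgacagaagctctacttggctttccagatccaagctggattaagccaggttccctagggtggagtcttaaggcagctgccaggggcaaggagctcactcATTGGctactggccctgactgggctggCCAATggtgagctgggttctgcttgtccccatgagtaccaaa
Mogat1: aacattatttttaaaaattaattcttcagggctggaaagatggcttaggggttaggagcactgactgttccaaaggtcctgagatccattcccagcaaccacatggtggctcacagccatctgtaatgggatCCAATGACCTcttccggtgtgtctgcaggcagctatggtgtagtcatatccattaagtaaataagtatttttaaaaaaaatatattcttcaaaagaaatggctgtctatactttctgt
The search, on both strands, used CCAAT (the CCAAT box) and AGGTCA (the core site of nuclear receptors). It also used the direct repeat of that core site spaced by 1 base, which PPARgamma binds with RXR, the TATA box (TATAAA), the E-box (CACGTG) and a C/EBP palindrome (TTGCGCAA). Adipoq held 2 matches to CCAAT. Mogat1 held 1 match to CCAAT and 1 to AGGTCA on the minus strand, which overlap in the capitals. Of 33469 rat promoters of this length, 34% held CCAAT and 14.1% held AGGTCA. The other motifs had no match in either window and occurred in 0.0508% (the spaced repeat), 12.9% (TATA box), 5.59% (E-box) and 0.14% (C/EBP palindrome) of promoters.

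Levels below are log2 signals set against the upper quartile of their own array, so 0 is the 75th percentile of all spots and a difference of 1 is a doubling. Arrays differed in brightness. That percentile ran from 50.7 to 177, between 13854 and 24009 of 43379 spots stood well above background by the scanner's own test, and 0 spots were saturated. Each of the 4 slides held all 3 diets. Epithelial markers were high throughout: 9 of 10 luminal genes were measured, and their mean level lay between 3.83 and 4.34 in every tumour of every diet. These markers speak for mammary epithelium and cannot tell tumour from normal gland. No probe passed limma's adjusted p of 0.05 in any pair of diets (0 of 21011, or 0%). Before adjustment, 822 probes (3.91%) had p under 0.05 for deficient against control, 415 (1.98%) for supplemented against control, and 1482 (7.05%) for supplemented against deficient.

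**Figure D1:**
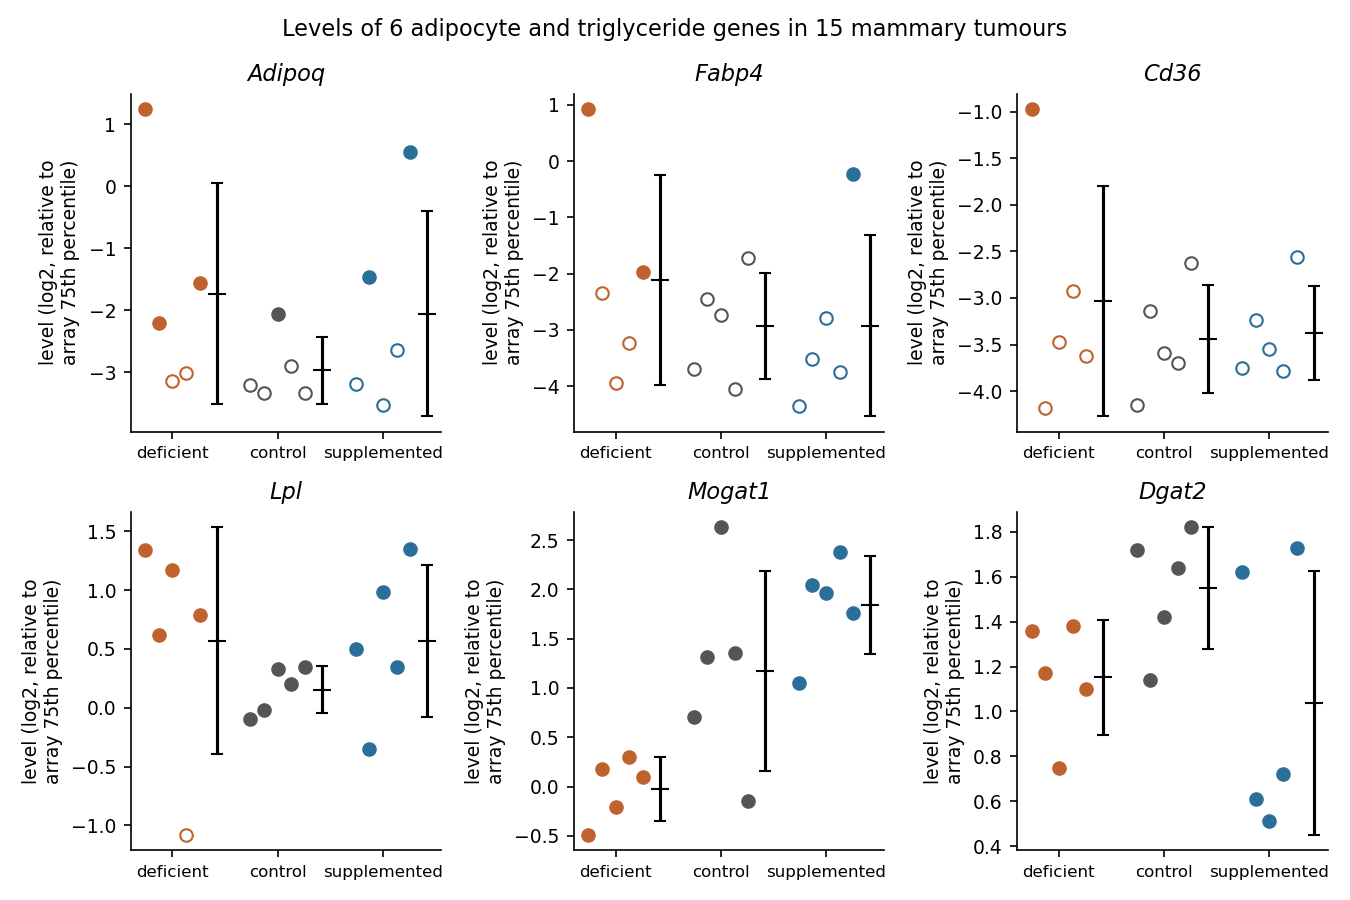
Levels of Adipoq, Fabp4, Cd36, Lpl, Mogat1 and Dgat2 in each tumour (vertical axis, log2 relative to the array's 75th percentile) by diet (horizontal axis), with filled points well above background, open points not, and black bars for the mean ± SD of 5 tumours. Deficient tumour 1 (leftmost orange point) and supplemented tumour 5 (rightmost blue point) have the highest Adipoq and Fabp4 levels, while every supplemented Mogat1 level lies above every deficient one.

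Adipoq, which codes for the fat cell hormone adiponectin, varied more from tumour to tumour than from diet to diet. Its levels were 1.25, -2.20, -3.14, -3.01 and -1.56 in deficient tumours 1 to 5. They were -3.21, -3.34, -2.06, -2.90 and -3.33 in control tumours 1 to 5, and -3.19, -1.47, -3.53, -2.65 and 0.55 in supplemented tumours 1 to 5. Deficient tumour 1 and supplemented tumour 5 stood far above the rest, and the 3 diets overlapped. Deficient tumour 1 was on the array with the lowest 75th percentile (50.7), against which its levels are set. Over the 15 tumours Adipoq had r -0.15 with the log2 75th percentile (permutation p 0.608, adjusted 0.782). Whether that array's dimness changed its levels was not tested. The probe was well above background in 6 of 15 tumours: deficient 1, 2 and 5, control 3, and supplemented 2 and 5. In the other tumours the value is a background reading.

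The mean level of Adipoq was -1.73 ± 1.78 (SD, n = 5) in deficient, -2.97 ± 0.54 (SD, n = 5) in control and -2.06 ± 1.66 (SD, n = 5) in supplemented tumours. Deficient exceeded control, where 1 of 5 tumours was well above background, by 1.24 on the log2 scale (95% interval -0.46 to 2.93, limma adjusted p 0.987). Without deficient tumour 1 that difference was 0.49. With normexp background correction it was 0.41, and 0.44 in the authors' deposited table; for the other pairs these gave 0.31 and 0.33 (supplemented against control) and -0.1 and -0.11 (supplemented against deficient). Supplemented exceeded control by 0.91 (interval -0.79 to 2.60, adjusted p 1), and by 0.26 without supplemented tumour 5. Between supplemented and deficient the difference was -0.33 (interval -2.02 to 1.37, adjusted p 0.94), 0.42 without deficient tumour 1, -0.98 without supplemented tumour 5 and 0.041 without supplemented tumour 3. The intervals span more than a doubling on either side of 0 for that last pair. In bulk tumour RNA, fewer fat cells and less transcript per fat cell cannot be told apart.

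Lep, which codes for leptin, the appetite-regulating hormone of fat, was not well above background in any of the 15 tumours. Its readings ran from -4.92 to -2.61. Pparg, the gene of the PPARgamma receptor, was likewise not well above background in any tumour, with readings from -4.97 to -2.73. Both sets of readings followed the brightness of the array, with Pearson r of -0.94 for each gene against the log2 75th percentile (permutation p 1e-05 for each, the smallest the 100000 resamples can give, adjusted p 4.5e-05 over 9 genes). No difference between diets is therefore given for them. Lipe, which codes for hormone-sensitive lipase, was well above background only in deficient tumour 5, where its level was -2.57, and its other readings lay between -5.14 and -2.41.

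Fabp4 codes for the fatty acid binding protein of fat cells and macrophages, and it was highest in the same tumours that led for Adipoq. Its levels were 0.93, -2.35, -3.94, -3.23 and -1.97 in deficient tumours 1 to 5. They were -3.70, -2.46, -2.73, -4.06 and -1.73 in control tumours 1 to 5, and -4.36, -3.51, -2.79, -3.75 and -0.23 in supplemented tumours 1 to 5. Only deficient 1 and 5 and supplemented 5 were well above background, and the diets overlapped. Since no control tumour was, the deficient mean of -2.11 was set against the lowest signal counted as well above background on each control array, or the probe's own reading where that was higher. That gives a bound of 1.14-fold higher in deficient than in control tumours, with no test, against a measured control mean of -2.94. Deficient tumours 2, 3 and 4 count in the deficient mean though they were not well above background, so the bound is not a strict one. It rests on deficient tumour 1: without that tumour the deficient mean was -2.88 and the bound fell under 1, where no fold is given. The bound for supplemented against control was also under 1.

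Cd36 codes for a fatty acid uptake receptor of fat cells, endothelium and macrophages. It was well above background in deficient tumour 1 alone, at -0.97. Its other readings ran from -4.18 to -2.56. Over all 15 tumours, deficient tumour 1 included, Cd36 too followed array brightness (r -0.71, permutation p 0.00192, adjusted p 0.00576). Deficient tumour 1 was on the array with the lowest 75th percentile (50.7), and r without it was not computed. The tumour with the most Adipoq thus also had the most Fabp4 and the only measurable Cd36.

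Lpl, which codes for the lipase that frees fatty acids from circulating triglyceride, was well above background in 14 of 15 tumours. Its levels were 1.34, 0.62, 1.17, -1.08 and 0.79 in deficient tumours 1 to 5. They were -0.095, -0.02, 0.33, 0.20 and 0.35 in control tumours 1 to 5, and 0.50, -0.35, 0.98, 0.35 and 1.35 in supplemented tumours 1 to 5. Control tumours lay close together inside the range of both other diets, and deficient tumour 4, the lowest, was the 1 tumour not well above background. The means were 0.57 ± 0.96, 0.15 ± 0.20 and 0.57 ± 0.65 (SD, n = 5 each) in deficient, control and supplemented tumours. Deficient and supplemented each exceeded control by 0.41 (interval -0.41 to 1.24; limma adjusted p 0.987 and 1), and they differed from each other by -0.00038 (interval -0.83 to 0.83, adjusted p 1). Deficient minus control was 0.22 without deficient tumour 1 and 0.83 without deficient tumour 4, and supplemented minus control was 0.22 without supplemented tumour 5 and 0.64 without supplemented tumour 2. With normexp the 2 differences from control were 0.26 and 0.24. The second Lpl probe was well above background in 1 tumour and correlated with the first at r 0.61 across the 15 tumours.

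Mogat1 showed the widest separation between diets among the 4 tested genes: its level was lowest in deficient tumours and highest in supplemented ones, 3.64-fold apart by the processed signal (a log2 difference of 1.86, beside 1.1 with normexp background correction and 1.21 in the authors' deposited table). Its levels were -0.49, 0.18, -0.21, 0.30 and 0.098 in deficient tumours 1 to 5. They were 0.71, 1.31, 2.63, 1.35 and -0.15 in control tumours 1 to 5, and 1.05, 2.05, 1.96, 2.38 and 1.76 in supplemented tumours 1 to 5. Every supplemented tumour lay above every deficient tumour, while control tumours overlapped with both, control 5 lying among the deficient tumours and control 3 above all others. The probe was well above background in all 15 tumours.

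The mean Mogat1 level was -0.024 ± 0.32 in deficient, 1.17 ± 1.02 in control and 1.84 ± 0.49 in supplemented tumours (SD, n = 5 each). The supplemented mean exceeded the deficient mean by 1.86 (SE 0.39, 95% interval 1.04 to 2.69), which did not pass the adjustment over all probes (limma p 0.000207, adjusted p 0.615). It had the fifth smallest p of the 21011 probes. An exact two-sided permutation test of these 10 tumours gave p 0.00794, the smallest that 5 against 5 can give. Mogat1 was listed with earlier results of these data known. Its rank and its unadjusted p values, here and below, therefore give no independent support for a diet difference. Over the whole array, 180 probes (0.857%) likewise had every supplemented tumour above every deficient tumour. Within the slides, of 3 or 4 arrays each, the difference was 1.54, 1.82, 2.33 and 1.66.

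Deficient tumours had a lower Mogat1 mean than control tumours by a log2 difference of -1.19 (SE 0.39, interval -2.02 to -0.37, limma p 0.00754, adjusted p 0.987). It was -0.65 with normexp background correction and -0.73 in the authors' deposited table. The exact permutation p was 0.0317, and the difference within slides was -1.20, -1.13, -2.58 and -0.50. Supplemented exceeded control by 0.67 (interval -0.15 to 1.5, limma p 0.104, adjusted p 1), 0.44 with normexp, with a value of -0.25 on the third slide and 0.34, 0.69 and 1.16 on the others. Without control tumour 3 the first of these differences was -0.83 and the second 1.04, and without control tumour 5 they were -1.52 and 0.34. Per doubling of dietary zinc the Mogat1 level differed by 0.32 (SE 0.064, limma p 0.000115, adjusted p 0.419), a slope chosen after the data were seen. No probe passed the adjusted threshold for that slope (0 of 21011, or 0%; 1617 at an unadjusted p under 0.05) or for limma's F test over the diets (0, or 0%; 847 unadjusted), where Mogat1 had an adjusted p of 0.99.

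Dgat2, which codes for the enzyme that turns diacylglycerol into triglyceride, was well above background in all 15 tumours by its brightest probe. Its levels were 1.36, 1.17, 0.75, 1.38 and 1.1 in deficient tumours 1 to 5. They were 1.72, 1.14, 1.42, 1.64 and 1.82 in control tumours 1 to 5, and 1.62, 0.61, 0.51, 0.72 and 1.73 in supplemented tumours 1 to 5. The supplemented tumours split into 2 at control levels and 3 below the lowest deficient level, and the diets overlapped. Means were 1.15 ± 0.25, 1.55 ± 0.27 and 1.04 ± 0.59 (SD, n = 5 each) in deficient, control and supplemented tumours.

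For Dgat2, deficient minus control was -0.39 (interval -0.92 to 0.13, limma adjusted p 0.987) and supplemented minus control was -0.51 (interval -1.03 to 0.019, adjusted p 1); with normexp they were -0.21 and -0.34. The exact permutation p values for these pairs were 0.0397 and 0.111. Supplemented minus deficient was -0.11 (interval -0.64 to 0.41, adjusted p 0.931). The 3 Dgat2 probes did not move together: their correlations across tumours were 0.28, 0.56 and -0.024. For supplemented minus deficient the other probes gave -0.36 and 0.62, which differ in sign, and for deficient minus control they gave -0.045 (interval -0.81 to 0.72) and -0.87 (interval -1.7 to -0.048). They were well above background in 10 and 8 of 15 tumours.

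**Figure D2:**
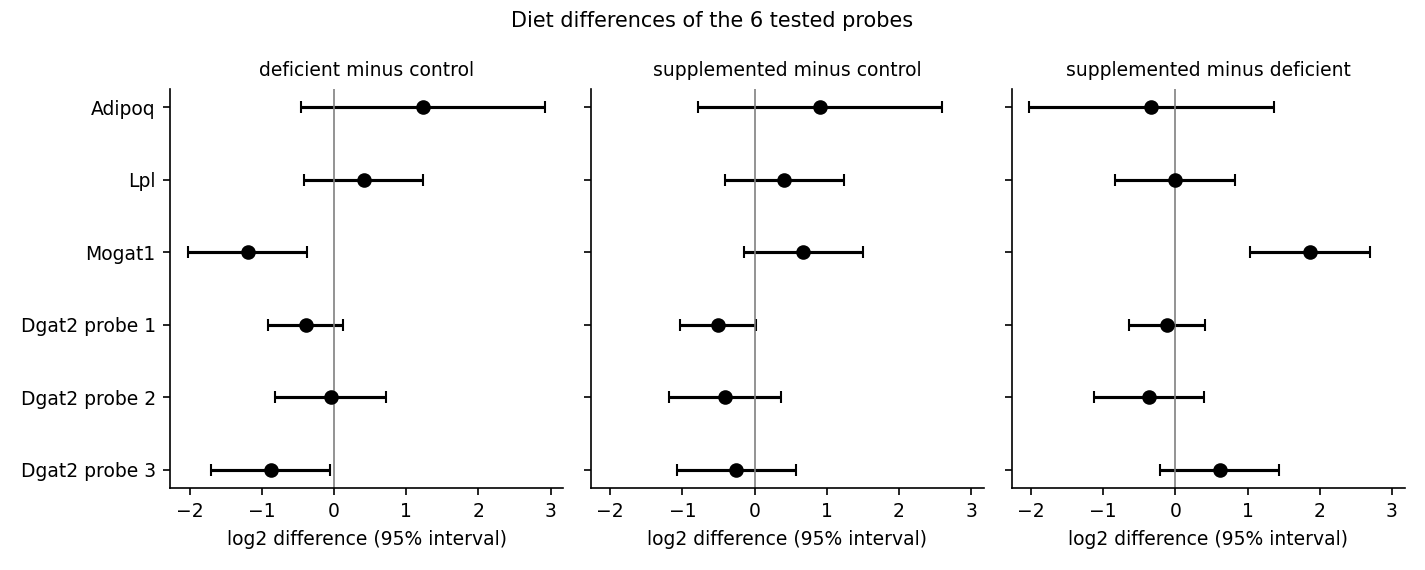
Differences between diets (horizontal axis, log2, points with 95% intervals from limma) for the 6 tested probes of Adipoq, Lpl, Mogat1 and Dgat2 (vertical axis), with 1 panel per pair of diets and Dgat2 probe 1 the brightest. The Mogat1 interval for supplemented minus deficient runs from 1.04 to 2.69, while the Adipoq intervals all include 0.

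Read as a list, the 4 tested genes had median differences of 0.012 for deficient against control, 0.54 for supplemented against control and -0.057 for supplemented against deficient, beside -0.0046, -0.0067 and -0.001 over all probes. By their brightest probes, 0 of the 4 passed limma's adjusted threshold in any pair. By those probes Mogat1 alone was under an unadjusted limma p of 0.05, in deficient minus control and in supplemented minus deficient, 1 of 4 each against 3.91% and 7.05% of all probes. A dimmer Dgat2 probe was as well for deficient minus control (limma p 0.0395, adjusted 0.987). Between supplemented and deficient tumours the 4 values were 1.86 for Mogat1, -0.33 for Adipoq, -0.11 for Dgat2 and -0.00038 for Lpl, none past the adjusted threshold.

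Across the 15 tumours Mogat1 showed no detectable relation to Adipoq. Deficient tumour 1, with the most Adipoq, had the lowest Mogat1 of all (-0.49), and supplemented tumour 5, next in Adipoq, had a Mogat1 level of 1.76, near its diet's mean. Pearson r was -0.093 (permutation p 0.737) and Spearman rho 0.029 (p 0.924). Without those 2 tumours, which lay farthest from the median of Adipoq, r was 0.18 (permutation p 0.542) and rho 0.20. Of the 21011 probes, 12372 (58.9%) had a higher correlation with Mogat1 than Adipoq did.

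The sign of this relation was not stable between scan days. It was 0.37 in the 8 tumours of the first (exact p 0.402, rho 0.62) and -0.61 in the 7 tumours of the other (exact p 0.144, rho -0.43). In the 6 tumours with measurable Adipoq, r was -0.32 (exact p 0.447). With slide means removed it was 0.029, and with diet means removed 0.047. Within diets the fitted slope was 0.022 log2 units of Mogat1 per log2 unit of Adipoq, with a 95% interval of -0.25 to 0.29, so a slope beyond those bounds lies outside the interval and smaller ones cannot be told from 0 here.

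**Figure D3:**
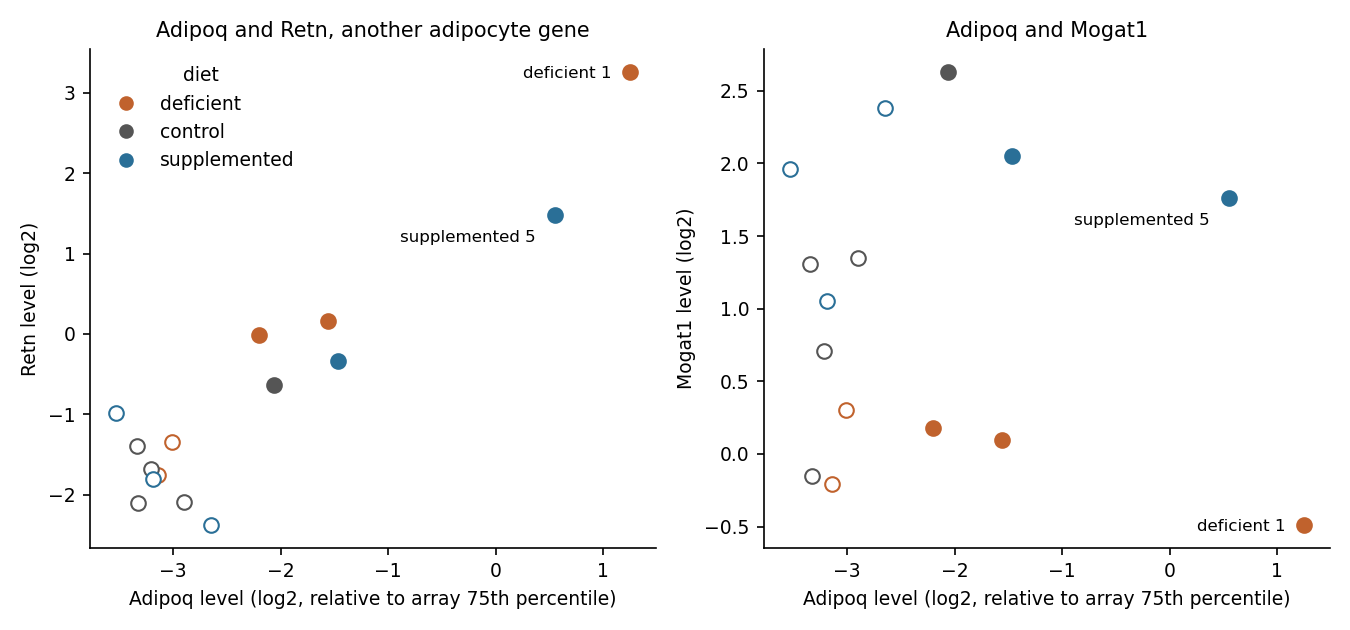
Adipoq level (horizontal axes, log2 relative to the array's 75th percentile) against Retn (left) and Mogat1 (right) in 15 tumours coloured by diet, with open points where Adipoq was not well above background. Retn is highest where Adipoq is highest (r 0.93), while Mogat1 runs from -0.21 to 2.63 in the 13 tumours with less Adipoq than the labelled ones (r -0.093 over all 15).

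No other gene of the list tracked Mogat1 either. Over 10 relations the lowest adjusted permutation p was 0.457 for Pearson and 0.566 for Spearman. Pearson r with Mogat1 was -0.30 for Fabp4, -0.16 for Lpl, -0.34 for Cd36 and -0.50 for Lipe (unadjusted permutation p 0.0581). It was -0.26 for Dgat2, -0.33 for Lep and -0.30 for Pparg. Of these, Fabp4 (well above background in 3 of 15 tumours), Lep, Pparg, Cd36 and Lipe are mostly background readings. Retn and Cfd, which code for the fat cell products resistin and adipsin, were added as further measures of fat after the data were seen, and they gave -0.22 and -0.36 (-0.021 and -0.33 without the 2 tumours farthest from each gene's median).

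Adipoq correlated with some other fat genes by Pearson's r, mostly through deficient tumour 1 and supplemented tumour 5, and by rank no relation passed adjustment. Its r was 0.93 with Retn (permutation p 3e-05, adjusted over 6 relations 0.00018, rho 0.65 with adjusted p 0.063), 0.85 with Cfd (p 0.00046, adjusted 0.00138, rho 0.49 with adjusted p 0.193) and 0.80 with Fabp4 (p 0.00217, adjusted 0.00434, rho 0.37 with adjusted p 0.352). Without those 2 tumours the values were 0.72, 0.42 and 0.19, so the relation with Fabp4 rests on them. With Cd36 it was 0.68 (p 0.0128, adjusted 0.0192, rho 0.19 with adjusted p 0.608) and -0.18 without them. Lpl (0.48, adjusted p 0.0898; -0.06 without them) and Dgat2 (0.13, adjusted p 0.652; -0.25 without them) were not related to Adipoq beyond the threshold.

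The difference in Mogat1 between supplemented and deficient tumours changed little with a fat marker level in the model. Adipoq was well above background in only 6 of 15 tumours and is a background reading in the others. The fit with Adipoq therefore cannot compare tumours of like fat content. With the Adipoq level of each tumour in the model the Mogat1 difference was 1.87 (interval 1.01 to 2.73, limma adjusted p 0.659), beside 1.86 without it. With the mean of Retn and Cfd it was 1.81 (0.93 to 2.69), and without the 2 tumours richest in Adipoq it was 1.77. With the mean level of luminal epithelial genes it was 1.85, of macrophage genes 1.80 and of milk genes 1.87. Deficient minus control was -1.22 with Adipoq in the model and -1.11 with Retn and Cfd.

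**Figure D4:**
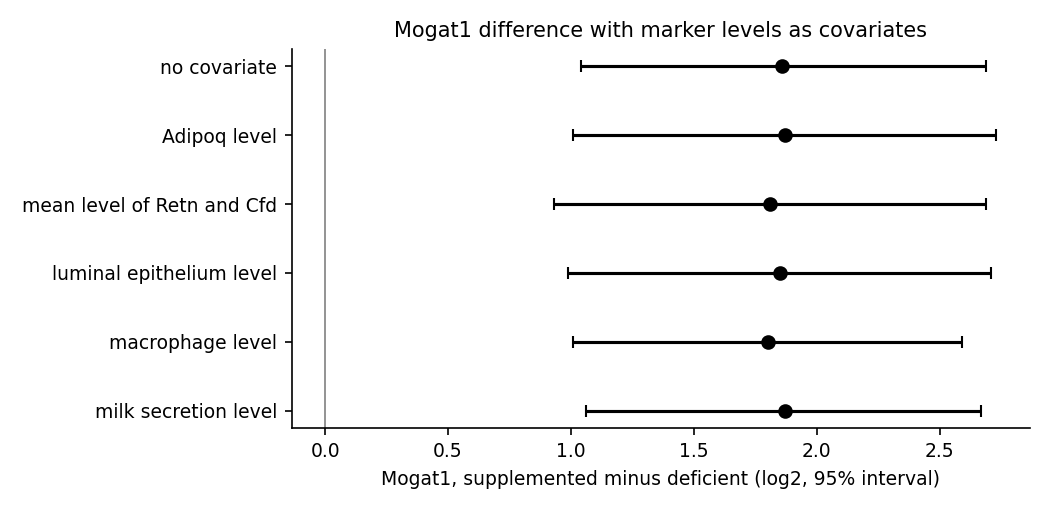
Mogat1 difference between supplemented and deficient tumours (horizontal axis, log2, points with 95% intervals from limma) without a covariate and with 1 marker level in the model at a time (vertical axis). The 6 estimates lie between 1.80 and 1.87 and every interval excludes 0, before adjustment over probes. The Adipoq covariate was well above background in only 6 of 15 tumours.

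Marker genes of other cell types overlapped between the diets. Mean levels ran from 1.38 to 2.60 in deficient, 1.36 to 2.58 in control and 1.22 to 2.32 in supplemented tumours for macrophage genes (8 of 10 measured, Cd163 and Marco never well above background). Milk genes (10 of 10) spread more, from 0.51 to 3.05, -0.95 to 2.36 and 0.011 to 2.64. Against control, 9 of 10 milk genes were higher in deficient tumours (median difference 1.03, beside -0.0046 over all probes). In supplemented tumours 10 of 10 were higher (median 0.55, beside -0.0067). Under an unadjusted limma p of 0.05 were 2 and 0 of the 10, against 3.91% and 1.98% of all probes, with 0 past limma's adjusted threshold. The 10 genes were read in the same 5 tumours per diet, so they are not 10 separate observations of a diet. Of 24 relations between the 4 tested genes and 6 marker lists, the lowest p was that of Lpl, which lactating epithelium also makes, with milk genes (r 0.44, permutation p 0.0999, adjusted 0.97; rho 0.58, adjusted 0.624). With the milk gene level in the model, the Lpl difference from control was 0.21 for deficient and 0.21 for supplemented tumours, beside 0.41 for each without it.

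Among further fat cell genes, Retn and Cfd were highest in the same tumours as Adipoq. Of 16 other adipocyte genes, 14 had a probe and 6 were measured, and Cidec, Aqp7, Itih1 and Trarg1 were never well above background. Their mean level ran from -0.14 to 1.71 in deficient, -0.77 to 0.52 in control and -0.84 to 0.46 in supplemented tumours. Retn had levels of 3.26 in deficient tumour 1 and 1.48 in supplemented tumour 5, and between -2.38 and 0.16 in all others. Cfd reached 6.08 and 4.66 in those tumours and 0.86 to 3.33 in the rest. The remaining genes of the 6 showed little relation to Adipoq. Their Pearson r with it was -0.11 for Nnat, 0.18 for Thrsp, 0.059 for Sncg and -0.099 for Cebpa.

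In this wider list 0 of 6 genes passed limma's adjusted threshold in any pair, and all 6 were lower in supplemented than deficient tumours, with a median difference of -0.79 beside -0.001 over all probes. Among them were Retn at -0.87 (adjusted p 0.823), Cfd at -0.72 (0.851), Thrsp, a regulator of fat synthesis, at -0.55 (0.789), and Nnat at -0.94 (0.751). Mogat1 lay in the other direction in that pair. These values lean on deficient tumour 1: without it 5 of the 6 were lower, the median was -0.37, Retn was -0.066 and Cfd 0.038. Cebpa, a fat cell transcription factor singled out after its value was seen, was well above background in 4 deficient, 1 control and 0 supplemented tumours. Its supplemented readings are background, and the bound for deficient tumours was 1.59-fold higher (measured means -1.54 and -2.88, limma p 0.0124, adjusted 0.674). The probe passed the filter mainly through deficient tumours and that p compares them with background readings, so it gives no support for a diet difference. Deficient tumour 4 stood highest at 0.34, the other deficient levels lay between -2.49 and -1.33, and the bound without it was not computed. Deficient tumour 1 (-1.33) counts in the mean though it was not well above background. No other gene of the 6 had an unadjusted p under 0.05 in that pair, and Nnat alone had for supplemented against control, at -1.42 (limma p 0.0254, adjusted 1). That is 1 of 6 genes in each of these pairs, beside 7.05% and 1.98% of all probes.

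The enzymes around Mogat1 and Dgat2 showed small differences. Of 22 other genes of triglyceride synthesis 15 were measured, 0 passed limma's adjusted threshold in any pair, and the median difference was 0.0067 (deficient against control), 0.14 (supplemented against control) and 0.0052 (supplemented against deficient). Acsl5, which activates fatty acids with coenzyme A, was the only 1 under an unadjusted 0.05 in any pair, 0.54 higher in supplemented than deficient tumours (limma p 0.0428, adjusted p 0.706). That is 1 of 15 genes, beside 7.05% of all probes in that pair. Supplemented minus deficient was 0.26 for Agpat1 and 0.29 for Agpat4, both lysophosphatidic acid acyltransferases, and -0.16 for the phosphatidate phosphatase Lpin3. None of these 4 exceeded 0.54 in size in that pair, against 1.86 for Mogat1.

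Lipolysis genes were measured for 6 of 11, with 0 past limma's adjusted threshold, 0 under an unadjusted 0.05, and medians of 0.14, -0.22 and -0.074 in the same order of pairs. G0s2, an inhibitor of triglyceride lipase, differed by -0.00056 between supplemented and deficient tumours. Angptl4, a secreted inhibitor of lipoprotein lipase, differed by -0.86 (limma p 0.054, adjusted 0.71), Pnpla2, the triglyceride lipase, by -0.13, and Mgll, the monoacylglycerol lipase, by -0.022. Fatty acid synthesis was measured for 9 of 13 genes, with 0 past limma's adjusted threshold and medians of -0.012, -0.061 and -0.069. Fasn was the only 1 under an unadjusted 0.05, with a deficient minus control difference of -0.53 (limma p 0.0457, adjusted 0.987). That is 1 of 9 genes, beside 3.91% of all probes in that pair. In this group Fasn, the fatty acid synthase, differed by 0.38 between supplemented and deficient tumours, Scd2 (a desaturase) by 0.15, Acly (ATP citrate lyase) by 0.21 and Me1 (malic enzyme) by -0.069.

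Fat cell transcription factors were measured for 7 of 13 genes, with 0 past limma's adjusted threshold, Cebpa alone under an unadjusted 0.05, and medians of 0.27, -0.029 and -0.31. Cebpa was under it for supplemented minus deficient, 1 of 7 beside 7.05% of all probes. The mean level of the 7 ran from -0.15 to 0.57 in deficient, -0.48 to -0.18 in control and -0.49 to -0.16 in supplemented tumours, a narrow separation that was not tested. That mean includes Cebpa, which was well above background in 4 deficient, 1 control and 0 supplemented tumours and passed the filter mainly through deficient ones. The separation therefore gives no support for a diet difference, and the mean without Cebpa was not computed. Against control, 6 of the 7 were higher in deficient tumours and 1 lower, with Cebpd at 0.97 (limma p 0.0516, adjusted 0.987). Between supplemented and deficient tumours Cebpd differed by -0.34, Klf5 by 0.011, Klf4 by -0.22 and Klf15 by -0.51. Lipid droplet genes were measured for 2 of 11, Fitm2 and Cidea, and brown fat genes for 1 of 6, Cidea, while Ucp1, the uncoupling protein of brown fat, was never well above background. The median of the 2 droplet genes was -0.025, -0.27 and -0.24, and Cidea alone, which coats fat droplets, gave -0.22, -0.74 and -0.52 (limma adjusted p 0.987, 1 and 0.717; unadjusted p 0.0147 for supplemented against control). In that last pair 1.98% of all probes were under an unadjusted 0.05.

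The genes whose levels ran closest to Adipoq over the 15 tumours, with the listed genes left out, were Retn (0.93), Ces1d (0.91), Serpina3n (0.91), Cfd (0.85), Lap3 (0.83), Rbp4 (0.80), Klrk1 (0.79) and Eml4 (0.75). Those closest to Mogat1 were Dlat (0.91), Wdr35 (0.90), Sema3c (0.90), Ywhae (0.89), Rab10 (0.89), Srr (0.88), Ube2k (0.87) and Cdkn2aipnl (0.87). With diet means removed the Mogat1 values ran from 0.72 for Cdkn2aipnl to 0.86 for Wdr35. These are the highest of 21011 correlations and are given as a description.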

How the data were processed

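Tumour RNA was hybridised to single-colour (Cy3) Agilent rat arrays. Per the file headers, the deposited scanner values are spot intensity on a linear scale, background-subtracted and detrended by Feature Extraction 11.5.1.1; the submitters' processing notes give version 15.5. The authors also deposited a log2 table of 30002 probes, whose medians ran from 7.09 to 7.10 and whose normalization is not given in the sources used here and which was tried as an alternative source.

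Levels were log2 of the processed intensity minus the array's 75th percentile over non-control spots. Outlier-marked spots were set to missing (0 in the listed genes' probes) and spots of a probe averaged. The test kept 21011 of 41012 probes, those that stood well above background in 5 or more of the 15 arrays. Symbols came from RefSeq by probe accession, and 17502 probes (42.7%) matched 1 gene. Where a gene had more than 1 tested probe, the brightest on average stands for it.

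The 3 diets entered 1 model in limma 3.58.1 (R 4.3.3; lmFit and eBayes, two-sided; 12 residual degrees of freedom; Benjamini-Hochberg over all tested probes, threshold 0.05). Fits were tested on simulated data. Correlations had two-sided permutation tests with 100000 resamples, or exact ones for up to 8 tumours. The number of arrays limits the precision. Alternatives changed the background correction, scaling, filter, slide and replicate blocks, array weights, covariates, probe choice and tumours. The normexp alternative used median spot signals where mean signals had been planned. A fat index of Adipoq, Lep, Plin1 and Lipe had 1 measured gene, Adipoq, so it is not given apart. From each wider list at most 4 genes are named, those with the highest level, and the 8 genes closest to Adipoq and to Mogat1; exceptions are pointed out. The genes and lists were chosen with earlier results of these data known.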

Additional observations from a re-analysis of the deposited data

How the results depend on the processing

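The Mogat1 difference between supplemented and deficient tumours kept its direction under all 16 alternatives run (1.1 to 1.94, adjusted p 0.342 to 0.985) and without any single tumour (1.73 to 2.06), and stayed short of limma's adjusted threshold in each. It was smallest, 1.1, with normexp background and 1.21 in the authors' deposited log2 values. With Adipoq in the model it ran from 1.08 to 2.01. The correlation of Mogat1 with Adipoq changed sign with the slide as a block (0.029), without the 2 tumours highest in Adipoq (0.18) and over single tumours left out (-0.25 to 0.27). Same-numbered tumours of different diets did not deviate together (r -0.28 to 0.22, mean -0.00035, 6 of 15 pairs above 0.1). Differently numbered pairs gave r -0.29 to 0.34 (mean 0.0011, 16 of 60 above 0.1). The numbers partly follow the slides: tumours numbered 1 were all on slide 1, those numbered 2 on slide 2 and those numbered 5 on slide 4. With the replicate block the Mogat1 correlation with Adipoq was 0.098, the Mogat1 difference 1.86 (limma adjusted p 0.633) and 0 probes were called. Mogat1 with Dgat2 gave 0.011 with the slide block, and with Retn -0.34 to 0.12 over single tumours left out. Lpl between supplemented and deficient (-0.00038) turned positive under quantile scaling (0.032) and with Adipoq (0.064), Retn and Cfd (0.20), luminal (0.018) or macrophage (0.0024) levels as a covariate, and ran from -0.41 to 0.23 without single tumours. For the same pair Dgat2 was 0.046 as the mean of its probes and -0.29 to 0.018 without single tumours, and Adipoq -0.98 to 0.42. With only probes well above background on all 15 arrays, Mogat1 and Dgat2 alone remained and the median was -0.79 (deficient minus control) and 0.87 (supplemented minus deficient). The count of called probes went from 0 to 1 with array weights (supplemented minus deficient, and the F test), with Adipoq (deficient minus control, and F) or Retn and Cfd (deficient minus control) as a covariate, and lay between 0 and 1 without single tumours (supplemented minus deficient, 1 without supplemented tumour 1); none of these was a probe of the listed genes. The cause was not tested. The covariates Retn and Cfd, macrophage and milk levels, and the fits without 2 tumours, were chosen after seeing the data. Correlations were not computed under the other filters, array weights or marker covariates. Probes near background, which include Adipoq in most tumours, give the least precise values, and 95% intervals had a median half-width of 0.51.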
